A study of Mus musculus with 8 samples.

Results

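Autophagy delivers cytoplasm, protein aggregates and organelles to the lysosome inside a double-membraned vesicle, and mitophagy is its selective form for mitochondria. A kinase complex starts the process, a lipid kinase complex marks the site, vesicles and lipid-transfer proteins supply membrane, and a ubiquitin-like conjugation system attaches ATG8 proteins (the LC3 and GABARAP families) to the growing membrane, where they bind cargo receptors. In the liver it recycles amino acids and lipids in fasting and removes damaged mitochondria. The mRNA levels of 38 named genes of this pathway were examined in isolated hepatocytes of mice with and without hepatocyte cannabinoid 1 receptor (CB1R, gene *Cnr1*). The 38 genes were chosen by name, from the initiating kinases to the mitophagy receptors, out of 21368 mouse genes with a probe on the array, and 51 probes were matched to them through their accessions.

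Hepatocyte RNA of 4 control mice (hCNR1+/+, labelled hCNR1_WT, strain label CNRO) and 4 knock-out mice (hCNR1-/-, labelled hCNR1_cKO, strain label CNRO Alb-Cre) was hybridised to 1-colour Agilent arrays, with 1 array per mouse. The mice of both groups were littermates from a cross of floxed *Cnr1* with albumin-Cre, males of 12 to 14 weeks on a standard diet. The albumin promoter was used to direct Cre to hepatocytes, and *Cnr1* in other liver cells was not measured here. All arrays lay on a single slide with the genotypes in separate rows, so the row on the slide cannot be told apart from the genotype.

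Values are log2 of the background-corrected spot intensity minus the 75th percentile of the same array, called log2 signal below, and a difference between genotypes is a log2 fold change (hCNR1-/- minus hCNR1+/+). The 75th percentile ran from 61.99 to 139.4 intensity units in hCNR1+/+ and from 29.27 to 123.9 in hCNR1-/- arrays, and 28.56% to 42.31% of spots were detected, that is, flagged by the scanner software as well above background. The hCNR1-/- replicate 4 was the dimmest array and stood apart from its group, with a mean correlation of 0.9424 with the other 3 arrays, against 0.9639 to 0.9802 for the remaining 7 arrays. The single *Cnr1* probe was detected in 0 of 4 mice of either genotype, so within the array data the genotypes rest on the labels. The study separately reported *Cnr1* mRNA of hepatocytes isolated from mice of both genotypes. All 11 hepatocyte markers tested were detected on every array. The 10 Kupffer cell markers tested (2 lower at an adjusted p below 0.05, *Marco* and *Ctss*) were all lower in hCNR1-/- preparations, with a mean log2 signal of 1.39 to 2.59 in hCNR1+/+ and 0.23 to 1.12 in hCNR1-/- arrays, and *Timd4* was detected on none. Of the other markers tested, 5 of 8 endothelial, 1 of 1 stellate and 1 of 1 neutrophil markers were lower. Of 2 cholangiocyte markers 1 was lower, and of 2 lymphocyte markers 0 were (median log2 fold change 0.68). In these other lists 0 markers passed the adjusted threshold in either direction. The part of Kupffer and other non-hepatocyte cells in the results was not tested. Within such preparations, fewer cells of a type and less RNA per cell cannot be told apart.

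Of the 38 genes, 37 had a probe that was detected on 4 or more of the 8 arrays, and they were tested with limma together with all 11072 genes that met this filter. The gene not tested was *Atg10*, which encodes the conjugating enzyme for ATG12. Its 2 probes were detected in 0 and 1 of 4 hCNR1+/+ mice and in 0 of 4 hCNR1-/- mice.

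A single member fell at a Benjamini-Hochberg adjusted p below 0.05 in limma, *Atg9a*, and 0 members rose. Among all tested genes 1.30% were lower and 2.94% higher by the same rule, and the members' shares were 2.70% and 0.00%. At an unadjusted p below 0.05 together with a change of more than 2-fold, 2 members were lower (*Atg9a* and *Atg4c*) and 1 was higher (*Rb1cc1*), which is 5.41% and 2.70% of the members against a background of 3.75% and 4.78%. At an unadjusted p below 0.05 alone, 5 members were lower and 7 higher, or 13.5% and 18.9%, beside 6.92% and 14.7% of all tested genes. The groups did not overlap for 2 members that were lower and 4 that were higher, or 5.41% and 10.8%, beside 5.04% and 12.7% of all tested genes. The members' median log2 fold change was 0.07, against 0.08 over all tested genes, with 17 members negative and 20 positive. Except for *Atg9a*, *Atg4c* and *Rb1cc1*, every tested member had a fold change below 2 (34 of 37), and for 15 of them the 95% confidence interval also lay within a 2-fold change in either direction.

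**Figure D1:**
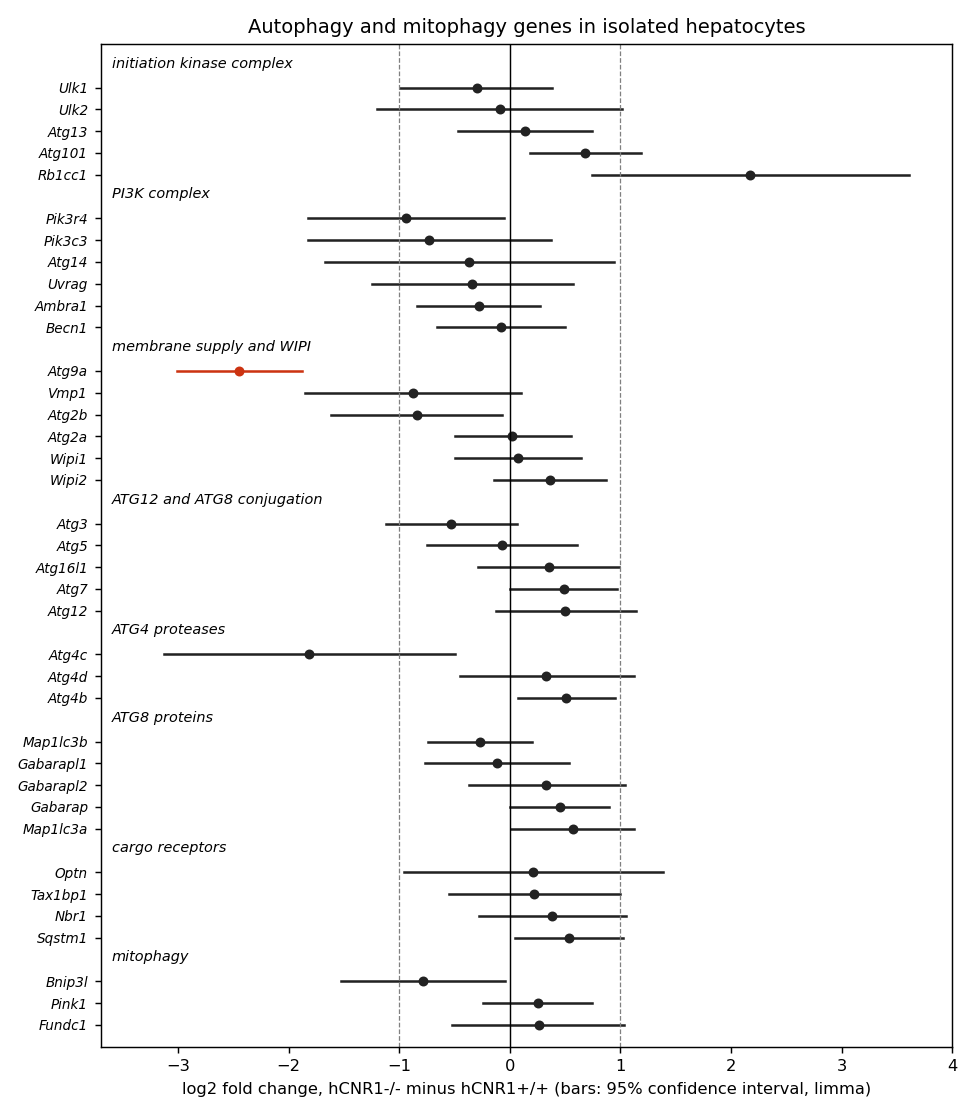
Log2 fold change (hCNR1-/- minus hCNR1+/+, x axis) of the 37 tested autophagy and mitophagy genes, in rows by role, with points for the limma estimate and bars for its 95% confidence interval. Dashed lines mark a 2-fold change. Red marks an adjusted p below 0.05, which *Atg9a* at −2.45 met, while *Rb1cc1* at 2.17 and *Atg4c* at −1.82 had wide intervals.

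ATG9A is a membrane protein of small vesicles that seed the autophagosome and moves lipids between the leaflets of its membrane. *Atg9a* had log2 signals of 0.62, 0.50, 0.49 and 0.00 in hCNR1+/+ replicates 1 to 4, and of −1.83, −1.77, −2.60 and −1.98 in hCNR1-/- replicates 1 to 4. Every hCNR1-/- array lay below every hCNR1+/+ array, and the dimmest array was not the lowest of its group. *Atg9a* fell by 2.45 on the log2 scale (standard error 0.25, 95% confidence interval −3.01 to −1.88), which is 5.45-fold lower, with an adjusted p = 0.00485 from limma. An exact two-sided permutation test over the 70 assignments of the 8 arrays gave p = 0.0286, the smallest it can give with 4 against 4. Its single probe was detected in 4 of 4 hCNR1+/+ mice and in 2 of 4 hCNR1-/- mice, replicates 1 and 2, so that replicates 3 and 4 lay near background. The call was lost with the normexp background correction (log2 fold change −0.97, adjusted p = 0.0884 from limma), without scaling between arrays (−3.00, adjusted p = 0.0582) and with the replicate number as a block (−2.45, adjusted p = 0.0677). In the same order, 0.117%, 0.262% and 0.00% of all tested genes were lower at the adjusted threshold, beside 1.30% in the fit reported here. *Atg9a* overlaps no other annotated gene. Of the genes beside it, *Zfand2b* had a log2 fold change of 0.43, *Abcb6* of 0.07 and *Ankzf1* of −0.36, with adjusted p = 0.372, 0.881 and 0.418 from limma.

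Promoter sequence was at hand for 31 of the 38 genes, from RefSeq (assembly GRCm38.p6). The 250 bases before the transcription start are shown for *Atg9a* and *Atg4c*, the genes lower by more than 2-fold, and for *Atg3*, as an example of a promoter with the E-box CACGTG, the core of the sites bound by TFEB and related factors that drive lysosomal and autophagy genes. Lower case marks the sequence and capitals the E-box, and each is written 5′ to 3′ on the strand of its gene.
Atg9a, chr1:75192011-75192260, minus strand: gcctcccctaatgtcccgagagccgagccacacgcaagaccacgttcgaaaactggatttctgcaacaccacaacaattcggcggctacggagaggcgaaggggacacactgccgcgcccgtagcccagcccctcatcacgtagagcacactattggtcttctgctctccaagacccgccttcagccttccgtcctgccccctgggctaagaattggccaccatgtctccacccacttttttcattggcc
Atg4c, chr4:99193684-99193933, plus strand, the upstream of 2 annotated starts: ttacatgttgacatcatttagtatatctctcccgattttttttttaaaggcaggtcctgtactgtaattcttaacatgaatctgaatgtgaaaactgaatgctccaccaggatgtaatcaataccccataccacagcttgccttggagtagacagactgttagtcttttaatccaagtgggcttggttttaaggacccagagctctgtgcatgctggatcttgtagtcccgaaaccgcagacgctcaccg
Atg3, chr16:45158579-45158828, plus strand: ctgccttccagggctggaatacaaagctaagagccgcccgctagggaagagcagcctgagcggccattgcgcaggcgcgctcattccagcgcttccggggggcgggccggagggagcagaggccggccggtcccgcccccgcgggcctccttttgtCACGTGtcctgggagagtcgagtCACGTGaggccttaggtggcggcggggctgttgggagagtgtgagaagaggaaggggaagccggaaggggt
The letters CACGTG, which read the same on both strands, were searched in windows of 300 bases, from 250 before to 50 after each start. They occurred for 4 of 31 members (12.9%), *Atg3*, *Atg5*, *Atg7* and *Atg14*, and for 8.09% of 27025 genes in the same table. The longer form TCACGTGA, which contains it, occurred for 1 member (3.23%), *Atg3*, against 1.12% of genes. The forkhead motif GTAAACA, searched on both strands, occurred for 0 members and 4.05% of genes. None of the 4 genes with an E-box passed the adjusted threshold in limma, with log2 fold changes of −0.53 for *Atg3*, −0.07 for *Atg5*, 0.49 for *Atg7* and −0.37 for *Atg14*.

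The other genes of membrane supply did not pass the adjusted threshold. *Vmp1*, which encodes a lipid scramblase of the endoplasmic reticulum, had a log2 fold change of −0.88, and *Atg2b*, one of the paralogous lipid-transfer proteins, of −0.84 (adjusted p = 0.278 and 0.198 from limma). Without hCNR1-/- replicate 4 these were −0.51 and −0.62, whereas *Vmp1* was at −1.22 without hCNR1+/+ replicate 4 and *Atg2b* at −1.05 without hCNR1+/+ replicate 2 (adjusted p = 0.126 and 0.172 from limma). *Atg2b* was detected in 3 of 4 hCNR1+/+ and 2 of 4 hCNR1-/- mice. The paralog *Atg2a* was at 0.02, with a 95% confidence interval of −0.50 to 0.55. *Wipi1* and *Wipi2*, whose products read the lipid mark, were at 0.07 and 0.36. The second *Wipi1* probe was higher in each hCNR1-/- array than in any hCNR1+/+ array, by 0.71, with an adjusted p = 0.0646 in a limma fit of every probe on its own.

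In the initiation complex, the largest difference was that of *Rb1cc1*, which encodes the large scaffold that holds the ULK kinases. *Rb1cc1* had log2 signals of −2.34, −1.29, −4.68 and −3.22 in hCNR1+/+ replicates 1 to 4, and of −0.97, −1.39, −0.47 and 0.00 in hCNR1-/- replicates 1 to 4. The hCNR1-/- arrays were higher, but hCNR1+/+ replicate 2 lay above hCNR1-/- replicate 2, and the hCNR1+/+ SD of 1.43 was the wider, against 0.60. The log2 fold change was 2.17 (standard error 0.64, adjusted p = 0.0886 from limma), and the exact permutation p was 0.0571. This probe was detected in 2 of 4 hCNR1+/+ mice and in 4 of 4 hCNR1-/- mice. A second, dimmer probe of *Rb1cc1* was too near background to be tested, and its mean log2 signal was −3.22 in hCNR1+/+ and −1.69 in hCNR1-/-. With the normexp background correction the fold change of *Rb1cc1* was 0.47, and a long non-coding RNA, 4732440D04Rik, overlaps the gene.

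*Atg101*, which encodes a partner that stabilises ATG13, had log2 signals of 4.77 to 5.21 in hCNR1+/+ and of 5.40 to 6.10 in hCNR1-/- arrays, without overlap. Its log2 fold change of 0.68 had an adjusted p = 0.120 in limma. The kinase genes *Ulk1* and *Ulk2* were at −0.30 and −0.09, and *Atg13* was at 0.14. The value of *Ulk2* rested on 1 array, since hCNR1-/- replicate 4, where it was not detected, was at −0.76 and the other 3 at 1.43 to 1.59. Without this array the log2 fold change of *Ulk2* was 0.47. A second, dimmer *Ulk2* probe was not tested. It was detected in 2 of 4 hCNR1+/+ and 0 of 4 hCNR1-/- mice, with a difference of −0.42.

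The 6 genes of the class III phosphatidylinositol 3-kinase complex and its regulators all had negative log2 fold changes, from −0.94 to −0.08, and none passed the adjusted threshold. *Pik3r4*, the regulatory subunit that anchors the kinase, had log2 signals of 2.27, 1.60, 2.34 and 2.75 in hCNR1+/+ and of 1.59, 1.87, 1.58 and 0.16 in hCNR1-/- replicates 1 to 4. The groups overlapped through hCNR1+/+ replicate 2, and hCNR1-/- replicate 4 was by far the lowest. Its log2 fold change was −0.94 (standard error 0.40, adjusted p = 0.209 from limma), and −0.56 without hCNR1-/- replicate 4. *Pik3c3*, the catalytic subunit, not detected in hCNR1-/- replicate 4, was at −0.73, *Becn1*, the scaffold Beclin, at −0.08, *Atg14* and *Uvrag*, its alternative partners, at −0.37 and −0.34, and *Ambra1*, a regulator of Beclin, at −0.28. This common sign depended on 1 array. Without hCNR1-/- replicate 4, 3 of the 6 were negative and 3 positive, from −0.56 to 0.22, and array weights also gave 3 negative and 3 positive.

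**Figure D2:**
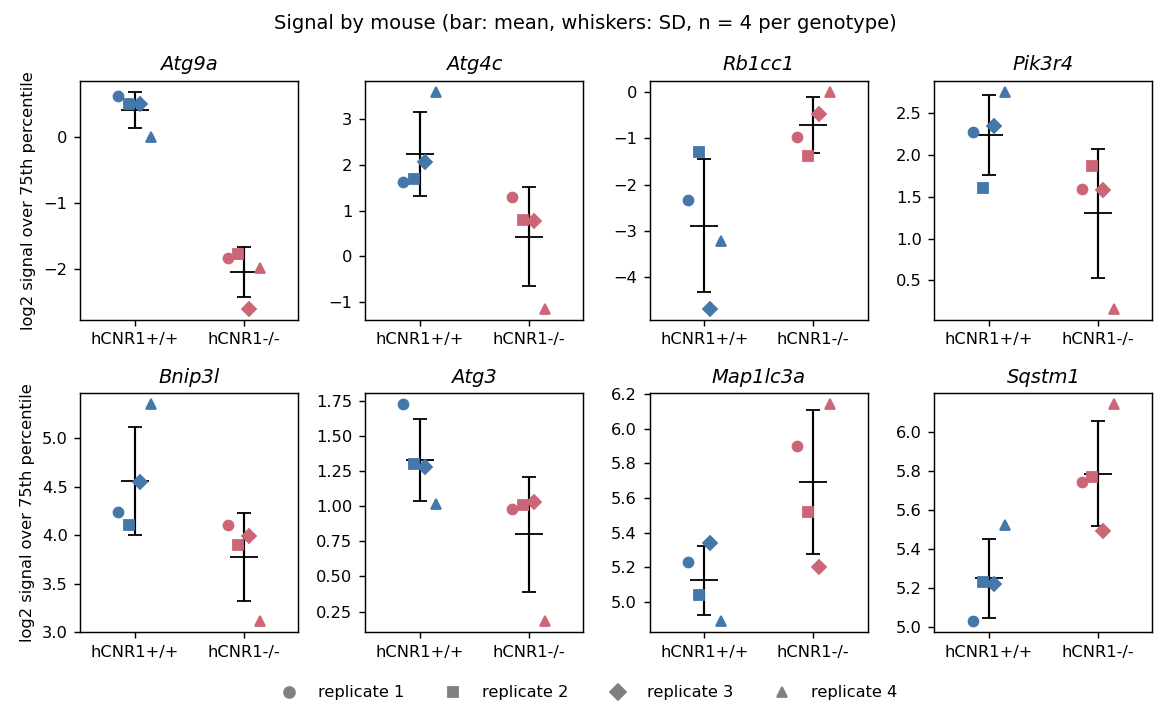
Log2 signal (y axis, relative to the 75th percentile of each array) by genotype for the 8 genes given in full, with a symbol per replicate, a bar for the mean and whiskers for the SD (n = 4 mice). The genotypes are apart for *Atg9a* and *Atg4c*, and hCNR1-/- replicate 4 (triangle) is the lowest of its group for *Atg4c*, *Pik3r4*, *Bnip3l* and *Atg3*.

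ATG4 proteases trim ATG8 proteins before conjugation and release them from membranes afterwards. *Atg4c* had log2 signals of 1.63, 1.70, 2.07 and 3.60 in hCNR1+/+ and of 1.31, 0.79, 0.78 and −1.15 in hCNR1-/- replicates 1 to 4. The groups did not overlap, with hCNR1+/+ replicate 4 high and hCNR1-/- replicate 4 low within their groups. Neither of its 2 probes was detected in hCNR1-/- replicate 4, and both were detected on the other 7 arrays. The log2 fold change was −1.82 (standard error 0.59, 95% confidence interval −3.13 to −0.50, 3.52-fold lower), which did not pass the adjusted threshold (adjusted p = 0.113 from limma). Without hCNR1-/- replicate 4 it was −1.29 (adjusted p = 0.101). The second *Atg4c* probe did not overlap between groups either, at 0.53 to 1.93 in hCNR1+/+ and −1.07 to 0.28 in hCNR1-/- arrays, a difference of −1.37. Its paralog *Atg4b* had the opposite sign, with log2 signals of 0.88 to 1.25 in hCNR1+/+ and 1.29 to 1.67 in hCNR1-/- arrays, also without overlap (log2 fold change 0.51, adjusted p = 0.167 from limma). *Atg4d* was at 0.33.

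By the brightest probe of each gene on all 8 arrays, the conjugation enzyme with the largest difference was *Atg3*, which encodes the enzyme that hands ATG8 proteins to lipid. *Atg3* had log2 signals of 1.73, 1.30, 1.28 and 1.02 in hCNR1+/+ and of 0.98, 1.01, 1.03 and 0.18 in hCNR1-/- replicates 1 to 4. Only hCNR1+/+ replicate 4 and hCNR1-/- replicate 3 crossed, by 0.01. Its log2 fold change of −0.53 (standard error 0.26) had an adjusted p = 0.278 in limma. Without hCNR1-/- replicate 4 it was −0.32, and that of *Atg16l1* was 0.58. *Atg7*, the activating enzyme of both conjugation branches, was at 0.49 and the groups did not overlap, while its second probe gave −0.40, where hCNR1+/+ replicate 3 stood at 3.30 and the other 3 arrays of its group at 0.27 to 0.63. *Atg12* was at 0.50 by its brightest probe, where the groups overlapped (adjusted p = 0.338 from limma). A second *Atg12* probe had log2 signals of 1.85 to 2.37 in hCNR1+/+ and 2.73 to 3.29 in hCNR1-/- arrays. This difference of 0.89 passed the adjusted threshold when every probe was tested on its own (adjusted p = 0.0413 from limma). That fit was chosen after seeing the data, and the share over all probes was not counted. The partners of ATG12 in the lipidation complex, *Atg5* and *Atg16l1*, were at −0.07 and 0.35.

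The ATG8 genes themselves showed 0 genes past the adjusted threshold, with log2 fold changes from −0.27 to 0.57. *Map1lc3a*, which encodes LC3A, had log2 signals of 5.23, 5.04, 5.34 and 4.89 in hCNR1+/+ and of 5.90, 5.52, 5.20 and 6.14 in hCNR1-/- replicates 1 to 4. The groups overlapped through hCNR1-/- replicate 3. Its log2 fold change was 0.57 (standard error 0.25, adjusted p = 0.225 from limma). *Map1lc3b*, which encodes the LC3 form most used as a marker of autophagosomes, was at −0.27 with a 95% confidence interval of −0.74 to 0.20. *Gabarap* was higher in every hCNR1-/- array, at 7.65 to 8.24 against 7.36 to 7.55 (log2 fold change 0.45, adjusted p = 0.227 from limma), but its second probe overlapped, with a difference of 0.12. *Gabarapl1* was at −0.12. *Gabarapl2* was at 0.33 with all arrays, and without hCNR1-/- replicate 4, at 5.64 against 6.79 to 6.99 in the rest of its group, it was higher by 0.65 with an adjusted p = 0.0322 in limma. Without that array 10.1% of all tested genes were higher at the adjusted threshold.

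All 4 cargo receptors had positive log2 fold changes, from 0.21 to 0.53, none past the adjusted threshold, and without scaling between arrays all 4 were negative, from −0.34 to −0.02. Leaving out the scaling moved the median of all tested genes from 0.08 to −0.47, and these 4 remained above that median. The common sign also broke with 1 array left out. Without hCNR1+/+ replicate 4, 1 of the 4 was negative, at −0.25, and 3 were positive. Without hCNR1-/- replicate 1, 1 was negative, at 0.00 after rounding. *Sqstm1*, the ubiquitin-binding receptor whose protein is itself degraded by autophagy, had log2 signals of 5.03, 5.23, 5.22 and 5.52 in hCNR1+/+ and of 5.74, 5.77, 5.49 and 6.14 in hCNR1-/- replicates 1 to 4. The groups overlapped through a single pair, hCNR1+/+ replicate 4 and hCNR1-/- replicate 3. The log2 fold change was 0.53 (standard error 0.21, adjusted p = 0.189 from limma). *Nbr1*, its structural relative, was at 0.38, *Optn* at 0.21 and *Tax1bp1* at 0.22. The interval of *Optn* was wide, from −0.96 to 1.38.

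Of the mitophagy genes, *Bnip3l*, a receptor on the outer mitochondrial membrane, had log2 signals of 4.24, 4.10, 4.55 and 5.35 in hCNR1+/+ and of 4.10, 3.90, 3.99 and 3.11 in hCNR1-/- replicates 1 to 4. The groups met at 4.10, and replicate 4 was the extreme array in both, high in hCNR1+/+ and low in hCNR1-/-. Its log2 fold change was −0.79 (standard error 0.33, adjusted p = 0.207 from limma), and the 3 other *Bnip3l* probes gave −0.54, −0.37 and −0.73. It was −0.52 without hCNR1+/+ replicate 4 and −0.56 without hCNR1-/- replicate 4. *Pink1*, the kinase that marks depolarised mitochondria, was at 0.25 with a 95% confidence interval of −0.24 to 0.74, and *Fundc1*, a receptor of hypoxic mitophagy, at 0.26.

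The dimmest array moved with many of these values. The hCNR1-/- replicate 4 was the lowest of its group for 24 of 37 members (64.9%), against 53.3% of all tested genes, and the highest for 9. In hCNR1+/+, replicate 4 was the highest of its group for 21 members (56.8%), against 45.5% of all tested genes. The median SD in hCNR1+/+ was 0.278 for the members and 0.294 for all tested genes. In hCNR1-/- it was 0.451 and 0.449, and without replicate 4 it was 0.196 and 0.224. Without this array 13 members had negative and 24 positive log2 fold changes, with a median of 0.23 against 0.17 over all tested genes, and *Atg9a* was at −2.47 (adjusted p = 0.00387 from limma).

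**Figure D3:**
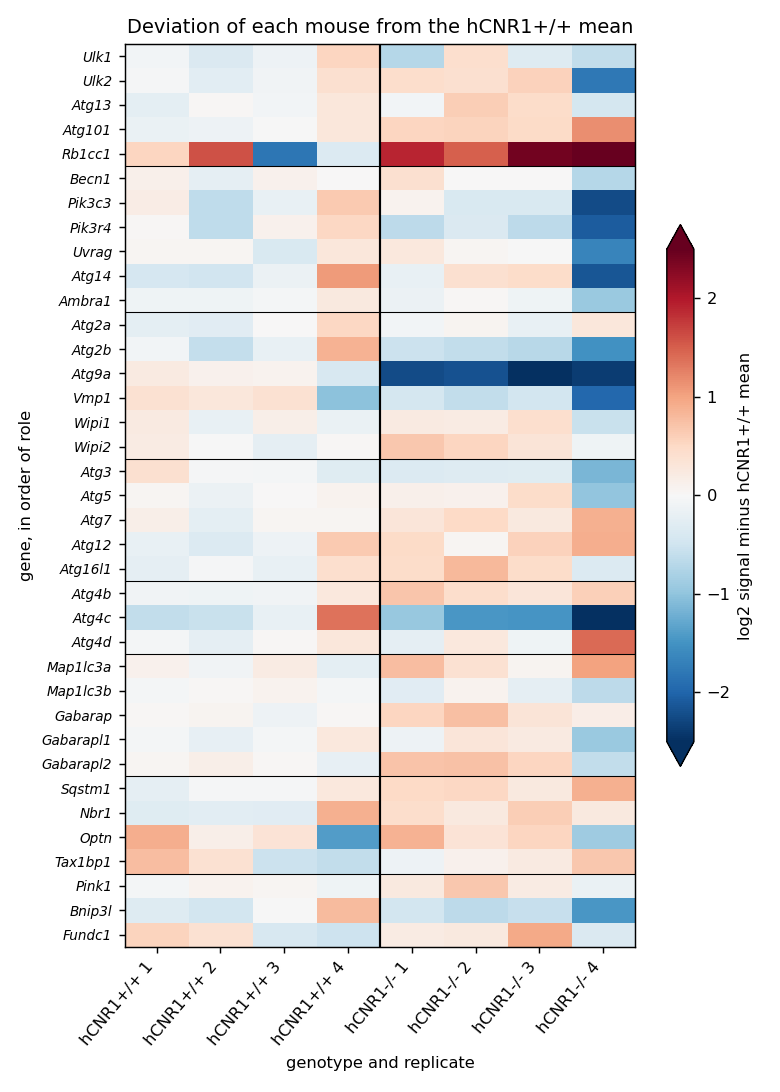
Log2 signal of each mouse minus the hCNR1+/+ mean of the same gene (colour, from blue for lower to red for higher) for the 37 tested genes, in rows by role, and the 8 arrays in columns. *Atg9a* is blue in all 4 hCNR1-/- columns, whereas the darkest blue of *Uvrag*, *Atg14* and *Ulk2* is in hCNR1-/- replicate 4.

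Another 52 genes of autophagy, its receptors, its fusion machinery and its transcription factors were listed, and 49 were tested. At an adjusted p below 0.05 in limma 0 were lower and 0 higher, beside 1.30% and 2.94% of all tested genes. At an unadjusted p below 0.05, 2 were lower and 4 higher (4.08% and 8.16%), below the 6.92% and 14.7% of all tested genes. The groups did not overlap for 3 that were higher (6.12%, beside 12.7% of all tested genes) and for 0 that were lower (0.00%, beside 5.04%). Their median log2 fold change was 0.03, from −1.40 to 0.98. The genes named here were chosen after their values were seen. Past a 2-fold change with an unadjusted p below 0.05 in limma, 1 of the 49 was lower (2.04%) and 0 were higher. The shares of all tested genes were 3.75% and 4.78%. The gene that was lower was *Bnip3*, the mitochondrial receptor paralogous to *Bnip3l*. It had log2 signals of 6.24, 6.68, 7.29 and 8.15 in hCNR1+/+ and of 5.78, 5.63, 6.48 and 4.88 in hCNR1-/- replicates 1 to 4, with overlap, and a log2 fold change of −1.40 (adjusted p = 0.113 from limma). The 3 without overlap were *Vps41* and *Rab7* of the fusion machinery and the transcription factor gene *Tfeb*, with log2 fold changes of 0.98, 0.66 and 0.77 (adjusted p = 0.0515, 0.106 and 0.141 from limma).

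The fold changes of the 3 genes past a 2-fold change kept their sign under every alternative in which they were tested. *Atg9a* kept an adjusted p below 0.05 with each of the 8 arrays left out, with log2 fold changes from −2.58 to −2.26, and under 10 of 13 other alternatives, the exceptions being normexp, no scaling and the replicate block. Among the 10, the other filters, the probe summaries and the variance trend refitted the same values of its single probe, at −2.45, so they add little. *Atg4c* ran from −2.11 to −1.29 and *Rb1cc1* from 1.57 to 2.70 with an array left out. Both passed the adjusted threshold of limma with array weights alone, at −1.08 (adjusted p = 0.0257) and 2.38 (adjusted p = 0.0385). With these weights 5.83% of all tested genes were lower and 19.7% higher at that threshold, beside 1.30% and 2.94% in the fit reported here.

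**Figure D4:**
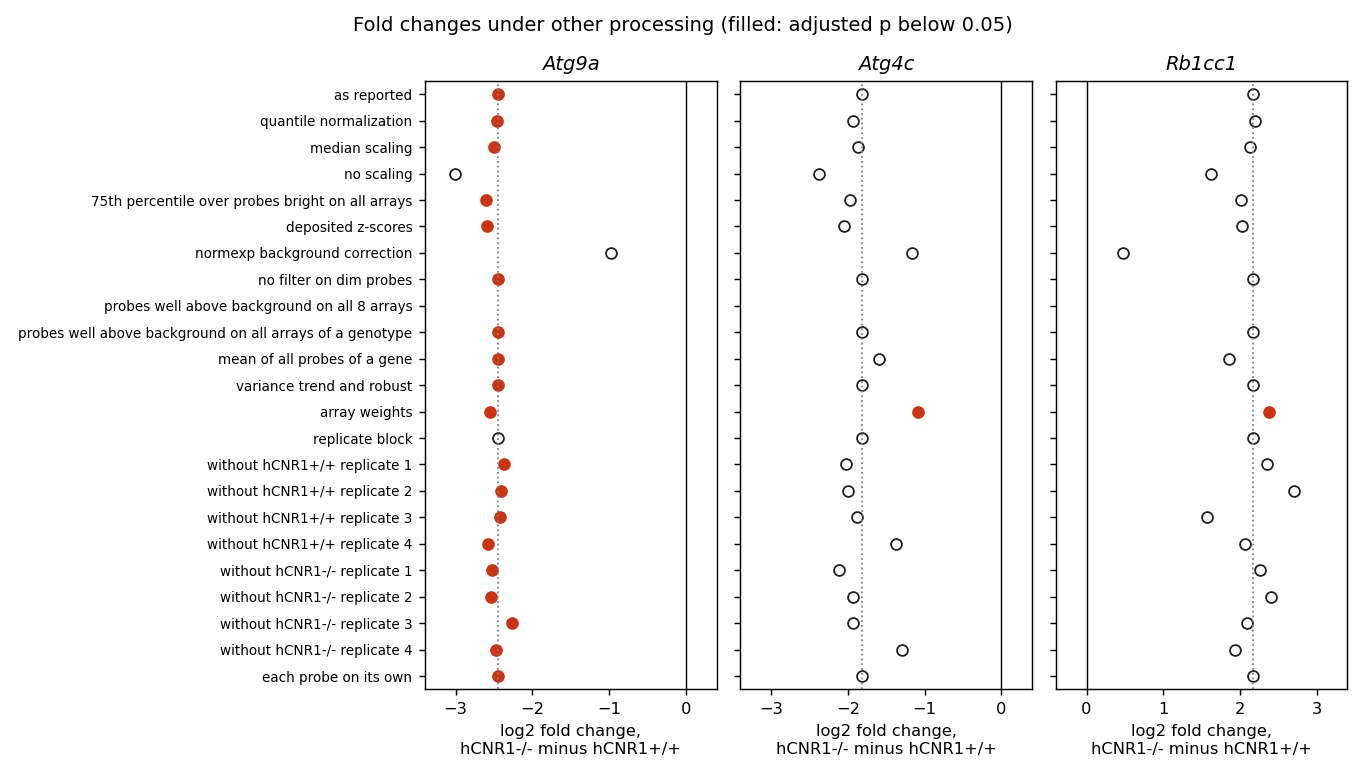
Log2 fold change (hCNR1-/- minus hCNR1+/+, x axis) of *Atg9a*, *Atg4c* and *Rb1cc1* under each processing alternative (rows), with filled points for an adjusted p below 0.05 and a dotted line at the reported value. *Atg9a* stays between −2.58 and −2.26 with an array left out, and the normexp correction brings *Rb1cc1* to 0.47. The row without points is the filter for probes detected on all 8 arrays, which none of the 3 genes passed.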

How the data were processed

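The authors deposited, for each of the 8 arrays, a spot intensity from the Agilent software Feature Extraction (version 12.0.3.1), background-corrected within the array and not scaled between arrays. A second column that the authors deposited held a score for each spot, equal to the z-score of the array's log intensities to within 0.005, and served as an alternative. The test behind the study's analysis is not given in the sources used here.

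Intensities of 59305 non-control spots were converted to log2 and set relative to the 75th percentile of their array. Spots flagged as outliers were left out and spots of a probe averaged. Probes were named through unversioned accessions and RefSeq (28331 of 55681 probes, 21368 genes). A probe was called detected where the software flagged 50% or more of its spots as well above background, and a gene was tested, by its brightest probe, when detected on 4 or more arrays. Linear models with moderated variances (lmFit, eBayes) were fitted with limma 3.58.1 under R 4.3.3, tests were two-sided, p-values were adjusted after Benjamini and Hochberg over 11072 genes, and the fit was tested on simulated data. The number of arrays limits the precision.

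Groups came from the labels. The members, their roles, the 52 related genes and the marker lists were chosen with earlier results of these data known, so their counts are descriptions. Members past either threshold and, per role, the member with the largest log2 fold change are given in full. Same-numbered replicates did not deviate together (correlations of 0.211, −0.157, −0.0526 and 0.0172) and were not paired. The alternatives were other scalings, the deposited scores, other filters and probe summaries, weights per array, other variance models, the replicate number as a block, leaving out single arrays, and, chosen after seeing the data, each probe on its own. A slide block was not possible with 1 slide. The normexp correction, with an offset of 50, used the median signal of each spot.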

Additional observations from a re-analysis of the deposited data

Results flagged for a closer look

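In 12 of 74 groups of 4 arrays (37 genes in each genotype), the array at one end lay far from its neighbour. Its Dixon ratio was above the 95% critical value for groups of 4. The same count was not made over all tested genes, and genes on 1 array are not independent, so it does not set the members apart. Of all tested genes, 53.3% were lowest of their group in hCNR1-/- replicate 4. In 9 of the 12 the array was hCNR1-/- replicate 4, and in 3 it was hCNR1+/+ replicate 4. The hCNR1-/- replicate 4 was lower than the rest of its group for *Ulk2* (ratio 0.933), *Uvrag* (0.86), *Ambra1* (0.833), *Pik3r4* (0.83), *Atg2b* (0.841), *Vmp1* (0.885), *Atg3* (0.945) and *Gabarapl2* (0.851), and higher for *Atg101* (0.873). For *Uvrag* it had a log2 signal of 1.69 against 3.34 to 3.61 in the other 3 arrays. The hCNR1+/+ replicate 4 was lower for *Vmp1* (0.927), at 4.54 against 5.85 to 5.95, and higher for *Atg4b* (0.982) and *Nbr1* (0.959).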

How the results depend on the processing

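Of the counts reported, 1 member lower and 0 higher at the adjusted threshold became 3 and 9 with array weights (8.11% and 24.3% of members, beside 5.83% and 19.7% of all tested genes). The count lower was 0 without scaling, with normexp, and with probes detected on all 8 arrays (31 members left, without *Atg9a*). In the same order, 0.262%, 0.117% and 0.645% of all tested genes were lower, beside 1.30% in the fit reported here. With each probe on its own 1 member was higher, where the share over all probes was not counted. With an array left out 0 to 1 were higher. The 1 came without hCNR1-/- replicate 4 and was 2.70% of members, beside 10.1% of all tested genes. The counts past a 2-fold change, 2 lower and 1 higher, were 1 and 0 with normexp and 0 and 0 with probes detected on all 8 arrays. The lower count was 5 with the 75th percentile over bright probes, and 2 to 4 with an array left out (4 without hCNR1+/+ replicate 2). With the bright probes the median of all tested genes moved from 0.08 to −0.08. The share of all tested genes lower at an unadjusted p below 0.05 in limma rose from 6.92% to 13.2%. The share of all tested genes past the 2-fold rule was not counted for these alternatives. Without scaling the members' median log2 fold change was −0.49 and that of all genes −0.47, and *Sqstm1* was at −0.0215. Under quantile normalization, bright probes and the deposited scores that median was also negative, from −0.09 to −0.03, within the spread between arrays. With the replicate block *Atg9a* kept −2.45 but had an adjusted p = 0.0677 from limma, leaving 0 members lower. The same block left 0.00% of all tested genes lower and 0.00% higher. Of the related genes, 1 was lower with the mean of all probes, array weights and each probe on its own, and 1 was higher with probes detected on all 8 arrays, on all arrays of a genotype, and with each probe on its own. Apart from each probe on its own, 1 gene was 2.04% to 2.27% of those tested. Of all tested genes, 0.876% were lower with the mean of all probes and 5.83% with array weights. With probes detected on all 8 arrays 4.07% were higher, and with all arrays of a genotype 3.84%. Higher related genes numbered 11 with array weights (22.4%, beside 19.7% of all tested genes) and 0 to 2 with an array left out. The 2 came without hCNR1-/- replicate 4 and were 4.08% of the related genes tested, beside 10.1% of all tested genes. The causes were not tested. Signal over background limits *Atg9a*, *Rb1cc1*, *Atg4c*, *Ulk2*, *Pik3c3*, *Atg2b* and *Atg10*, none of which was detected on all 8 arrays.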
